A study of Glycine max with 12 samples.

Results

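Leaves of 2 soybean (Glycine max) cultivars that had never carried aphids were compared: the aphid-resistant LD05-16060, which has the resistance gene Rag1 (R plants), and the aphid-susceptible SD01-76R (S plants). The comparison takes every array labelled as a control of either cultivar, 6 of the 12 arrays of the series, 3 for each cultivar. All plants shared 1 growth chamber at 25 °C and were kept under nets, and the third trifoliate leaf (labelled V3) was taken 21 days after 30 aphids had been placed on each plant of the infested groups. Control plants received no aphids, but their leaves were handled and rinsed like those of infested plants. Each array was hybridized with RNA pooled from 2 plants. The other 6 arrays, 3 of infested R plants and 3 of infested S plants, were used to compare the cultivars a second time. The study counted significantly more aphids on infested S than on infested R plants, so the aphid loads in that comparison were unequal. The infested and the uninfested plants stood on opposite sides of the chamber. The cultivars are related, but no source used here describes them as differing only in Rag1, so a difference between them is not tied to the resistance gene by this design.

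Rag1 is a locus on chromosome 7 that limits the growth of soybean aphid colonies, and its plants are compared here without aphids on them. Transcripts that differ between cultivars without a pest are commonly called constitutive differences. The uninfested plants shared the chamber with infested ones, however, and the study considers it likely that they sensed airborne signals from these. Whether such signals contributed to the differences was not tested. Candidate resistance proteins of the NBS-LRR class detect pests and pathogens inside the cell, ferritins store iron in the plastid and keep it from forming reactive oxygen, and phenylpropanoid enzymes supply isoflavones, the defense compounds typical of legumes.

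The GeneChip Soybean Genome Array reads each transcript with a set of short probes, a probe set, and a gene can have several of them. Values are log2 intensities after quantile normalization over 37593 soybean probe sets, and a difference is the mean of R arrays minus the mean of S arrays on that scale, so 1.00 is a 2-fold difference. The deposited arrays had medians from 6.86 to 7.71 before that step. Probes differ in brightness, so differences were taken between arrays within a probe set, and values below the lower quartile of all values, 5.85, were only marked as dim. The chlorophyll-binding protein gene CAB3, the only leaf marker that could be matched, averaged 12.23 in uninfested R plants and 12.60 in uninfested S plants. The signal of the 7 seed storage genes was dim, with a median of 5.28. Levels of different probe sets cannot be ranked, so these values do not settle the leaf label. The median difference over all soybean probe sets was 0.01. The labels do not say whether the 2-plant pools came from separate sowings, so p-values measure the spread between these pools. A change in transcript level and a change in the sequence under the probes cannot be told apart in these values.

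Uninfested R and S plants differed in 28 probe sets, 0.0745% of those tested, with 9 higher in R plants (0.0239%) and 19 lower (0.0505%). Each passed the call used here, an unadjusted p at or under 1e-04, a q-value at or under 0.04 and at least a 2-fold difference in limma, and the same 28 had a Benjamini-Hochberg adjusted p under 0.05. The absolute difference had a median of 1.74 and reached 7.18. Of all soybean probe sets, 1092 (2.9%) had an unadjusted p under 0.05, where 1880 would be reached on average with no difference at all. The R and S arrays did not overlap for any of the 28, and for 7.5% of all probe sets. This fit had no block, although R and S arrays of the same replicate number varied together. With the replicate number as a block, 50 probe sets (0.133%) were called, all 28 among them. The count fell to 14, 10 and 12 without uninfested R replicates 1, 2 and 3, and to 13 without uninfested S replicate 1. Fitted on the 6 uninfested arrays alone, 12 were called (0.0319%). With the block on those 6 arrays, 17 of the 28 had an adjusted p under 0.05 and 11 did not. Of the 28, 23 could be tied to a gene, and 5 could not.

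The probe set with the largest difference in either direction reads a Ribonuclease H family gene, LOC100526921 (Gma.2249.1.S1_at), on chromosome 2. It stood at 5.26, 5.40 and 5.27 in uninfested R plants and at 12.61, 12.32 and 12.53 in uninfested S plants. Signal was high in every S array and dim in every R array, where a lower level may not be measurable. The difference was -7.18 ± 0.13 (SE, n = 3 and 3; limma adjusted p = 3.5e-11). With normexp background correction it was -6.42.

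The gene next to it on chromosome 2 gave the largest difference in the other direction. LOC100812666 (Gma.12892.1.A1_at) carries the synonym Rsv4 in RefSeq. Rsv4 is a locus for resistance to soybean mosaic virus, and its product is an RNase H family protein that acts on viral double-stranded RNA. Its probe set stood at 10.88, 11.13 and 10.48 in R plants and at 8.21, 8.08 and 7.78 in S plants, a gap with no overlap. The difference was 2.80 ± 0.32, or 6.98-fold higher in R plants (limma adjusted p = 0.0049). In the RefSeq gene order the 2 genes are numbers 1230 and 1231 of chromosome 2, with none between them. Both encode members of the RNase H family, and whether their probe sets cross-hybridize was not tested.

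A candidate disease resistance gene was lower in R plants by both of its probe sets. Glyma.13g194900 resembles KR1, a soybean resistance protein of the TIR-NBS-LRR class. Gma.13012.1.A1_at stood at 6.01, 5.97 and 6.07 in R plants against 8.09, 8.72 and 8.14 in S plants, and the difference was -2.30 ± 0.24 (limma adjusted p = 0.0026). GmaAffx.79908.1.S1_at stood at 4.71, 4.79 and 4.70 against 6.17, 6.21 and 6.98, a difference of -1.72 ± 0.21 (limma adjusted p = 0.007). All R arrays of the second probe set were below the lower quartile.

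**Figure D1:**
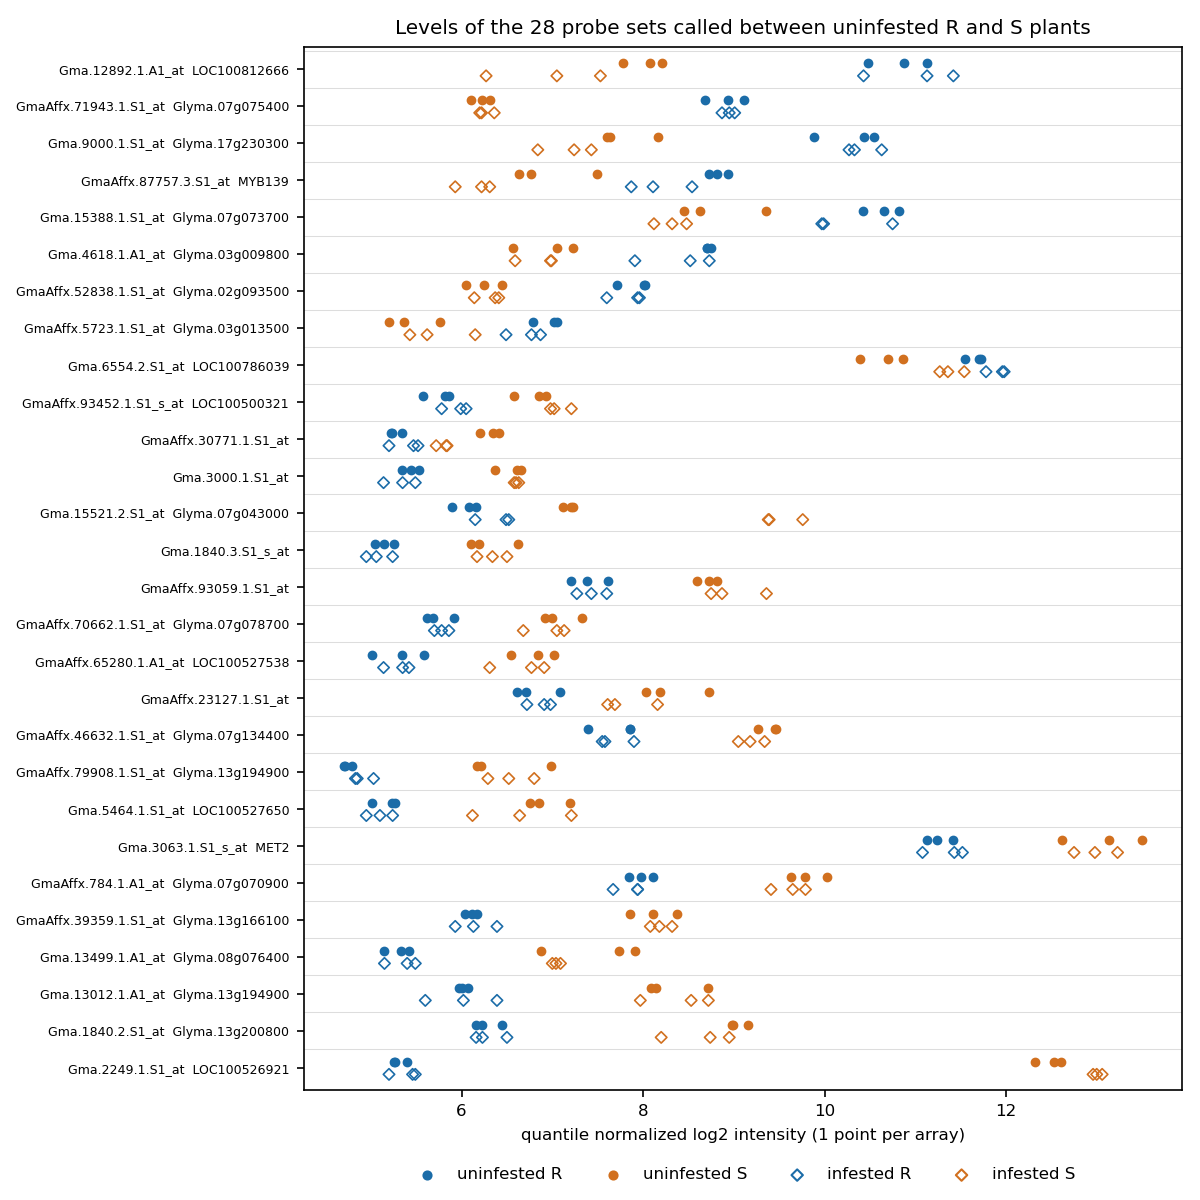
Quantile normalized log2 intensity (x axis) of the 28 probe sets called between uninfested R and S plants, 1 row each, ordered from the largest difference higher in R plants (top) to the largest lower (bottom). Filled circles are the 3 arrays per cultivar without aphids and open diamonds the 3 per cultivar with aphids. In every row the filled circles of R (blue) and S (orange) do not overlap, and Gma.2249.1.S1_at lies near 5.3 in R plants and near 12.5 in S plants.

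Probe sets for a protein of protein quality control and for a metal-binding protein were also among those lower in R plants. Gma.1840.2.S1_at, for a protein with the DnaJ domain of Hsp70 co-chaperones (Glyma.13g200800), stood at 6.23, 6.44 and 6.16 in R plants and 8.99, 9.16 and 8.98 in S plants. The difference was -2.77 ± 0.19, a 6.80-fold lower intensity (limma adjusted p = 5.6e-05). A probe set for MET2, a type 2 metallothionein (Gma.3063.1.S1_s_at), stood at 11.42, 11.24 and 11.13 in R plants and 13.13, 12.62 and 13.50 in S plants, a difference of -1.82 ± 0.22 (limma adjusted p = 0.007). The other MET2 probe sets on the array lay between -0.22 and 0.09. Metallothioneins are small cysteine-rich proteins that bind copper and zinc.

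Enzyme and signaling transcripts made up a further group lower in R plants. Gma.13499.1.A1_at (Glyma.08g076400) matches EMB1075 of Arabidopsis, a serine decarboxylase related to glutamate decarboxylases. It stood at 5.33, 5.42 and 5.14 in R plants and at 7.74, 7.91 and 6.88 in S plants, so the S arrays spread widely but stayed above all R arrays. The difference was -2.21 ± 0.22 (limma adjusted p = 0.0018). GmaAffx.39359.1.S1_at, for a Ser/Thr protein kinase (Glyma.13g166100), differed by -2.01 ± 0.16, from 6.10 in R plants to 8.11 in S plants (limma adjusted p = 0.00031). GmaAffx.46632.1.S1_at (Glyma.07g134400) matches the Arabidopsis splicing factor SMP1 and differed by -1.69 ± 0.16 (limma adjusted p = 0.0013). GmaAffx.70662.1.S1_at (Glyma.07g078700), from the glycosyl hydrolase family with the enzymes that remodel cell wall xyloglucan, differed by -1.34 ± 0.16 (limma adjusted p = 0.007). The auxin-repressed-like gene Glyma.07g043000 (Gma.15521.2.S1_at) stood at 5.89, 6.08 and 6.16 in R plants and at 7.23, 7.12 and 7.21 in S plants, a difference of -1.15 ± 0.15 (limma adjusted p = 0.014).

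The remaining 9 transcripts lower in R plants have no role given in the annotation used. GmaAffx.784.1.A1_at (Glyma.07g070900) stood at 8.11, 7.98 and 7.85 in R plants and 9.79, 10.03 and 9.63 in S plants, a difference of -1.84 ± 0.16 (limma adjusted p = 0.00045). LOC100527650 (Gma.5464.1.S1_at) differed by -1.76, LOC100527538 (GmaAffx.65280.1.A1_at) by -1.48 and LOC100500321 (GmaAffx.93452.1.S1_s_at) by -1.04. The others were read by GmaAffx.23127.1.S1_at (-1.51), GmaAffx.93059.1.S1_at (-1.32), Gma.1840.3.S1_s_at (-1.15), Gma.3000.1.S1_at (-1.11) and GmaAffx.30771.1.S1_at (-1.06), to which no gene was assigned.

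Both thioesterase transcripts among the called ones were higher in R plants. Thioesterases cut acyl groups from coenzyme A or other carriers and release free fatty acids. GmaAffx.71943.1.S1_at, for the thioesterase family protein Glyma.07g075400, stood at 8.68, 9.11 and 8.94 in R plants and at 6.31, 6.10 and 6.22 in S plants. The difference was 2.70 ± 0.14, a 6.49-fold higher intensity (limma adjusted p = 3.3e-06). Gma.4618.1.A1_at, for the acyl-CoA thioesterase Glyma.03g009800, stood at 8.71, 8.75 and 8.70 in R plants and at 7.05, 7.23 and 6.57 in S plants. The difference was 1.77 ± 0.22, or 3.40-fold (limma adjusted p = 0.0087).

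Lipid and small GTPase signaling were each represented by 1 transcript higher in R plants. GmaAffx.52838.1.S1_at (Glyma.02g093500) is annotated both as a phospholipase D, an enzyme that releases the signal lipid phosphatidic acid, and as the Arabidopsis gene MEE50. It stood at 8.01, 8.02 and 7.71 in R plants and at 6.45, 6.25 and 6.05 in S plants, a difference of 1.66 ± 0.16 (limma adjusted p = 0.0013). GmaAffx.5723.1.S1_at (Glyma.03g013500) reads a RopGEF, an exchange factor that activates plant Rop GTPases. It stood at 7.02, 7.05 and 6.79 in R plants and at 5.36, 5.76 and 5.20 in S plants, a difference of 1.52 ± 0.21 (limma adjusted p = 0.014).

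Transport, RNA binding and transcription supplied the other named transcripts higher in R plants. Gma.9000.1.S1_at (Glyma.17g230300), for a protein with RNA-binding KH domains, stood at 10.54, 10.44 and 9.88 in R plants and at 7.60, 7.64 and 8.17 in S plants. The difference was 2.48 ± 0.23, or 5.59-fold (limma adjusted p = 0.00078). GmaAffx.87757.3.S1_at, for the transcription factor MYB139, differed by 1.87 ± 0.23, from 6.96 in S plants to 8.83 in R plants (limma adjusted p = 0.0075). Gma.15388.1.S1_at (Glyma.07g073700), similar to the Arabidopsis potassium efflux antiporter KEA1 of the chloroplast envelope, differed by 1.82 ± 0.26 (limma adjusted p = 0.019). Its S arrays stood at 8.45, 8.63 and 9.35, below the R arrays at 10.42, 10.82 and 10.66. Gma.6554.2.S1_at, for LOC100786039, had the smallest difference called, 1.00 ± 0.15 (limma adjusted p = 0.027).

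The threshold was crossed by small margins for some probe sets. The 10 probe sets nearest to it on the other side had limma adjusted p-values from 0.057 to 0.17. The nearest, GmaAffx.82802.2.S1_at for LOC100786847, differed by 1.02 (limma adjusted p = 0.057, and 0.029 with the replicate block, which called it). Another of the 10 was Gma.10626.3.S1_at (Glyma.02g125100), for an enzyme of the iron and ascorbate dependent oxidase family, with 11.48, 11.75 and 11.21 in R plants and 9.44, 9.37 and 10.34 in S plants, a difference of 1.76 ± 0.30 (limma adjusted p = 0.086, and 0.029 with the block, which called it).

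The replicate block added 22 probe sets to the 28, 6 higher and 16 lower in R plants. The one with the largest difference among them, GmaAffx.32612.1.S1_at (Glyma.13g173600), reads an isoflavanone 4'-O-methyltransferase, an enzyme of isoflavonoid synthesis. It stood at 7.95, 6.31 and 6.73 in R plants and at 11.21, 10.40 and 8.94 in S plants, a difference of -3.19 (limma adjusted p = 0.029 with the block and 0.18 without it). Glyma.17g214100 (GmaAffx.84832.1.S1_at), annotated as a stress-induced receptor-like kinase, differed by -1.44 (0.0052 with the block, 0.26 without), and Glyma.13g311600 (Gma.1372.1.S1_at), a DnaJ homolog, by -1.15 (0.029 and 0.10). LOC778029 was read by Gma.3795.1.S1_at and GmaAffx.58409.1.A1_at, 1.13 and 1.70 higher in R plants. For GmaAffx.58409.1.A1_at the arrays of number 2 were the highest in both cultivars, at 9.72 in R and 7.78 in S plants, and those of number 1 the lowest, at 6.94 and 5.80.

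The infested plants gave a second reading of the difference between cultivars, on 6 arrays that played no part in the uninfested means. Infested S plants carried more aphids than infested R plants, so cultivar and aphid load cannot be told apart in any infested comparison given here. For that reason the study did not regard the comparison of infested S and R plants as reliable. All 28 probe sets had the same sign there, and for all 28 the infested R and S arrays did not overlap, in the same direction; over all soybean probe sets the infested arrays did not overlap for 17.9%. The limma adjusted p was under 0.05 for 26 of the 28, 8 higher and 18 lower, against 3.0% of all probe sets (0.702% higher and 2.29% lower), and 24 passed the full call against 0.827%. The median absolute difference was 1.60. With only the infested arrays in the fit, 24 of the 28 had an adjusted p under 0.05, against 1.6% of all probe sets. With the block 27 of the 28 passed in infested plants, and of the 50 probe sets called with it 42 differed there in the same direction, against 6.34% of all probe sets with the block. The count of 26 was 13 on the values as deposited, where only 14 were called. The 28 probe sets were chosen by the uninfested means and by a spread estimated from all 12 arrays. Both comparisons shared the normalization and that spread. A small spread in the infested arrays thus favored a call, so the second reading is not fully independent of the choice. With the spread estimated only from the 6 arrays of each comparison, 12 probe sets were called and 12 repeated.

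The Ribonuclease H probe set Gma.2249.1.S1_at stood at 5.49, 5.46 and 5.20 in infested R plants and at 12.96, 13.00 and 13.06 in infested S plants, a difference of -7.62 ± 0.13 (limma adjusted p = 1.7e-11). Its neighbor LOC100812666 (Gma.12892.1.A1_at) stood at 11.42, 10.43 and 11.13 in infested R plants and at 6.27, 7.53 and 7.05 in infested S plants, a difference of 4.04 ± 0.32 (limma adjusted p = 0.00017). The thioesterase Glyma.07g075400 (GmaAffx.71943.1.S1_at) differed by 2.68 ± 0.14, and the KR1-like gene by -2.41 and -1.64 in its probe sets Gma.13012.1.A1_at and GmaAffx.79908.1.S1_at. The 2 probe sets that did not pass in infested plants were GmaAffx.30771.1.S1_at, at -0.40 (limma adjusted p = 0.14), and Gma.6554.2.S1_at for LOC100786039, at 0.52 (limma adjusted p = 0.091). With the block the second passed (limma adjusted p = 0.036) and the first did not (0.14).

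**Figure D2:**
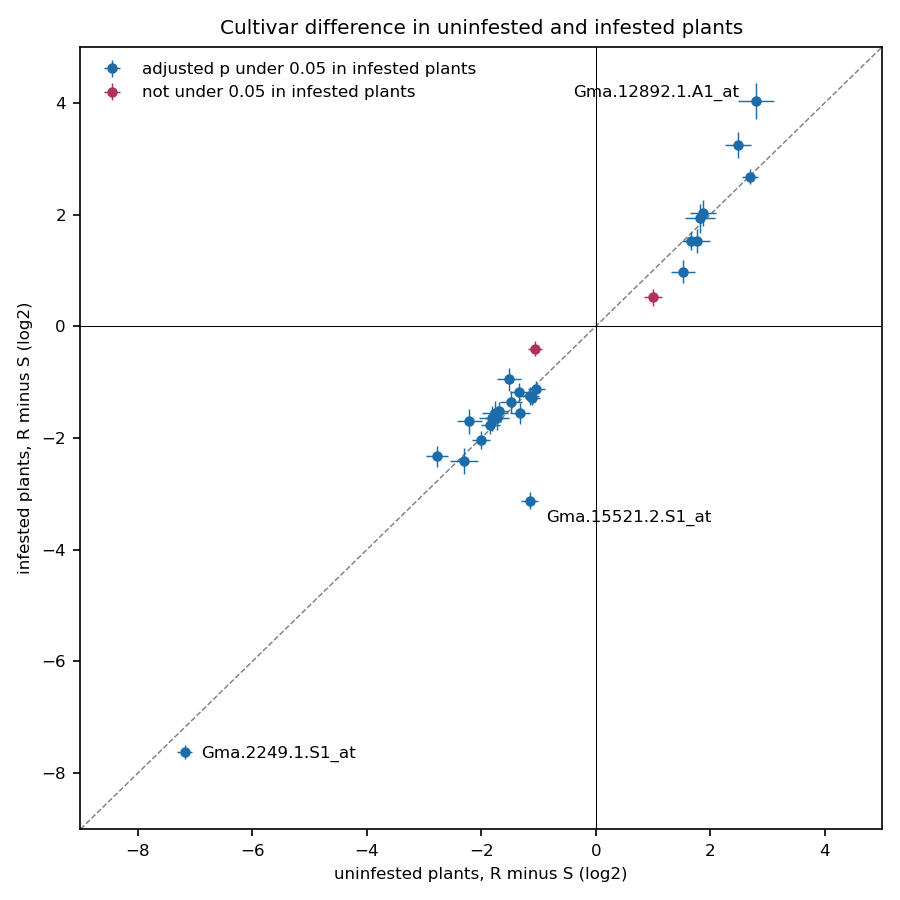
Difference between R and S plants (log2) in uninfested plants (x axis) and infested plants (y axis) for the 28 called probe sets, with bars of 1 SE and a dashed line of equal values. All points lie in the quadrants of equal sign, 26 with an adjusted p under 0.05 in infested plants (blue) and 2 without (red), and Gma.15521.2.S1_at lies farthest from the line, at -1.15 and -3.12.

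Whether the cultivar difference changed with aphids, at loads that differed between the cultivars, was tested with the interaction term. Over all soybean probe sets 3 had a limma adjusted p under 0.05 (0.00798%), and 1 of them was among the 28. It was the auxin-repressed-like Gma.15521.2.S1_at, whose difference was -1.15 in uninfested and -3.12 in infested plants (interaction -1.98, limma adjusted p = 0.036). Its infested S arrays stood at 9.38, 9.39 and 9.76 and its infested R arrays at 6.15, 6.49 and 6.52. The interaction stayed between -2.05 and -1.85 under 19 alternatives and had an adjusted p under 0.05 in 9 of them. No other called probe set passed the test, and 6 of the 28 had an unadjusted p under 0.05, against 6.92% of all probe sets. With the replicate block 60 probe sets passed the full call for the interaction, or 0.16%, against 2 without it (0.00532%).

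The aphid responses of the same 28 probe sets were read on the uninfested arrays again, so they are not independent of the cultivar difference. In S plants 3 of the 28 passed, 2 higher and 1 lower with aphids, against 3.42% of all probe sets (2.51% higher and 0.902% lower). The auxin-repressed-like transcript rose by 2.32 (limma adjusted p = 6.4e-05), Gma.6554.2.S1_at for LOC100786039 rose by 0.73 (0.019) and GmaAffx.30771.1.S1_at fell by 0.53 (0.047). The largest value in S plants that did not pass was an absolute 1.07, for LOC100812666. In R plants limma gave 0 of the 28, and 0.0% of all probe sets, an adjusted p under 0.05; 2 of the 28 had an unadjusted p under 0.05, against 2.06% of all probe sets, and the largest absolute value was 0.65. Without any 1 of the uninfested R arrays, or without uninfested S replicate 1, 0 of the probe sets then called passed in S plants.

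The called genes were placed on chromosomes by RefSeq or by the gene number the study assigned. Of the 28 probe sets 23 could be placed, 8 of them on chromosome 7 (34.8%), 7 on chromosome 13 (30.4%), 4 on chromosome 2 (17.4%), 2 on chromosome 3 and 1 each on chromosomes 8 and 17. In RefSeq, 5.15% of the placed soybean probe sets lie on chromosome 7, 7.43% on chromosome 13 and 5.59% on chromosome 2. Among the probe sets called between infested cultivars, which include 24 of the 28, chromosome 7 held 8.85% and chromosome 13 held 13.0%. The gene numbers of the study cover only probe sets it listed, 370 in all, of which 7.03% are on chromosome 7 and 7.57% on chromosome 13. By RefSeq alone 8 of the 28 were placed, 3 on chromosome 2, 2 on chromosome 7 and 3 on chromosome 13. The count on chromosomes 7 and 13 was 15, and 6 on the values as deposited. These shares are a description and were not tested.

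Within chromosomes some called genes lay close together in the gene order, which the gene numbers of the soybean annotation follow. Positions given below are those gene numbers without their last 2 digits, and genes were not counted. On chromosome 7 the unknown gene Glyma.07g070900, the KEA1-like antiporter gene Glyma.07g073700, the thioesterase gene Glyma.07g075400 and the glycosyl hydrolase gene Glyma.07g078700 were successive among the called genes with a gene number, at positions 709, 737, 754 and 787, with 2 higher and 2 lower in R plants. On chromosome 13 the KR1-like gene Glyma.13g194900, LOC100527538 (Glyma.13g196600) and the DnaJ gene Glyma.13g200800 were successive, at positions 1949, 1966 and 2008, all lower in R plants. In an older numbering the KR1-like gene is Glyma13g26650 and LOC100527538 is Glyma13g26640, which is the reverse order. On chromosome 3 the acyl-CoA thioesterase gene Glyma.03g009800 and the RopGEF gene Glyma.03g013500 were at positions 98 and 135, both higher in R plants. The position of Rag1 was not looked up here, and distances were not measured. Where 142 probe sets had both a RefSeq and a study chromosome, 123 agreed and the others did not.

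**Figure D3:**
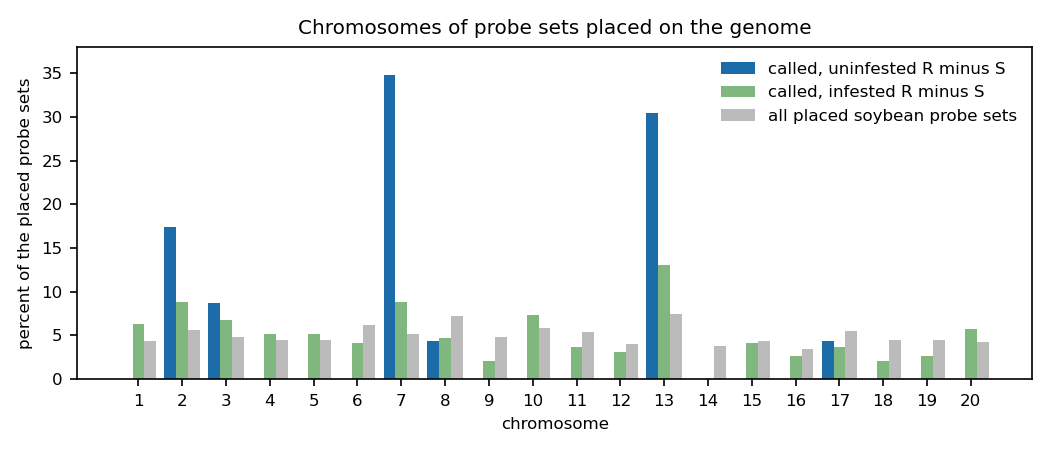
Share of placed probe sets (percent, y axis) on each of the 20 chromosomes (x axis) for those called between uninfested cultivars (blue), those called between infested cultivars (green) and all soybean probe sets placed by RefSeq (grey). Chromosome 7 holds 34.8% and chromosome 13 holds 30.4% of the first, against 5.15% and 7.43% of the last. Called probe sets were placed by RefSeq or by the study's gene numbers, so the bases differ. By RefSeq alone 8 of the uninfested calls were placed, 2 on chromosome 7 and 3 on chromosome 13.

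Several called genes have other probe sets on the array, and these did not always move with them. Both probe sets of the KR1-like gene differed. For MET2 the other 4 probe sets lay between -0.22 and 0.09, among them GmaAffx.93164.1.S1_s_at at 0.01. For MYB139 the other probe sets GmaAffx.87757.1.S1_at and GmaAffx.87757.3.S1_x_at were at 0.51 and 0.65 in uninfested plants and at 0.67 and 1.06 in infested plants, where the second had a limma adjusted p of 0.048. In the array design the DnaJ probe set shares its cluster with Gma.1840.1.S1_at at 0.18 and Gma.1840.1.S1_a_at at -0.29, and with the called Gma.1840.3.S1_s_at. Gma.3000.2.S1_a_at, in the cluster of the unassigned Gma.3000.1.S1_at, was at -0.92 in uninfested plants (limma adjusted p = 0.091) and at -1.25 in infested plants (0.0023). The SMP1-like probe set has a cluster partner, GmaAffx.46632.2.S1_at, at 0.13. Gma.6554.1.S1_at, the partner of LOC100786039's probe set, was at 0.06 in uninfested plants. In infested plants it was at -0.81 (limma adjusted p = 0.036), where the called probe set was at 0.52. GmaAffx.93059.1.S1_s_at, the partner of the called GmaAffx.93059.1.S1_at, was at -0.25, and GmaAffx.87757.2.S1_at, in the MYB139 cluster, at 0.02. Members of 1 cluster can read different genes or different ends of a transcript.

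Ferritins store iron inside a hollow protein shell, and plant ferritins sit in the plastid. The study annotated 13 probe sets of 6 genes as ferritin. The family was taken up here with its levels in these samples already known, so its direction is not independent evidence. The 9 probe sets of the 5 genes other than ferritin-3 had higher means in R plants, with differences from 1.14 to 2.52 and a median of 1.70, against 0.01 for all soybean probe sets. None passed the adjusted threshold, with a smallest limma adjusted p of 0.68 and unadjusted p-values from 0.0018 to 0.0076. With the replicate block the limma adjusted p ran from 0.079 to 0.52. For all 9 the uninfested R and S arrays did not overlap, as was so, with R higher, for 3.94% of all probe sets.

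The S arrays set most of that spread. For ferritin-2 (Glyma.01g124500), Gma.2505.1.S1_at stood at 12.55, 12.45 and 12.45 in R plants and at 11.31, 10.42 and 8.17 in S plants, a difference of 2.52 ± 0.68 (limma adjusted p = 0.88). For ferritin-1 (Glyma.18g205800), GmaAffx.93603.1.S1_s_at stood at 11.11, 11.45 and 10.97 in R plants and at 9.67, 9.64 and 7.89 in S plants, a difference of 2.11 ± 0.53 (limma adjusted p = 0.68). Gma.13352.1.S1_at of the same gene had a difference of 1.44, and there the R arrays had the wider spread. They stood at 10.30, 11.21 and 9.49, against 9.41, 8.75 and 8.53 in S plants. S replicate 1 was the highest and S replicate 3 the lowest of the S arrays in all 9 probe sets. Averaged over the 9, the R arrays stood at 11.99, 12.17 and 11.96 and the S arrays at 11.09, 10.46 and 9.35. These averages lay within 0.21 of one another for the R arrays and within 1.74 for the S arrays.

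Ferritin-4 and the ferritin gene of chromosome 7 also had R arrays above all S arrays. For ferritin-4 (Glyma.14g056800), Gma.1586.1.S1_at stood at 10.79, 10.94 and 11.55 in R plants and at 10.24, 10.22 and 9.40 in S plants, a difference of 1.14 ± 0.36. For LOC547698 (Glyma.07g155200), a ferritin gene on chromosome 7, Gma.1089.1.S1_at stood at 11.43, 11.92 and 11.87 in R plants and at 10.65, 9.95 and 8.84 in S plants, a difference of 1.93 ± 0.57. The second ferritin-2 gene, Glyma.03g050100, had differences of 1.49 and 1.23 in its probe sets Gma.2505.2.S1_x_at and Gma.2505.2.S1_at. The 4 probe sets of ferritin-3 lay between -0.17 and 0.40. Arrays of 3 of them overlapped, as for Gma.1160.1.S1_at, at 9.48, 9.68 and 8.61 in R plants and 9.61, 9.06 and 9.62 in S plants. Those of GmaAffx.81981.1.S1_at did not, at 7.61, 7.70 and 7.62 in R plants and 7.02, 7.48 and 7.23 in S plants (difference 0.40, limma adjusted p = 1.0).

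In infested plants the 9 ferritin probe sets differed by 1.27 to 2.71, with a median of 1.70, and 3 passed (limma adjusted p = 0.047 for Gma.13352.1.S1_at of ferritin-1, 0.018 for ferritin-4 and 0.026 for Gma.1089.1.S1_at of LOC547698), against 0.702% of all probe sets in that direction. With the block all 9 passed, against 1.88%. The infested arrays did not overlap for 8 of the 9, with R higher, against 9.55% of all probe sets. The infested R array of number 3 was the lowest of the R arrays in all 9. Averaged over the 9, infested R plants stood at 11.89, 11.65 and 10.47 and infested S plants at 9.03, 10.08 and 9.42.

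**Figure D4:**
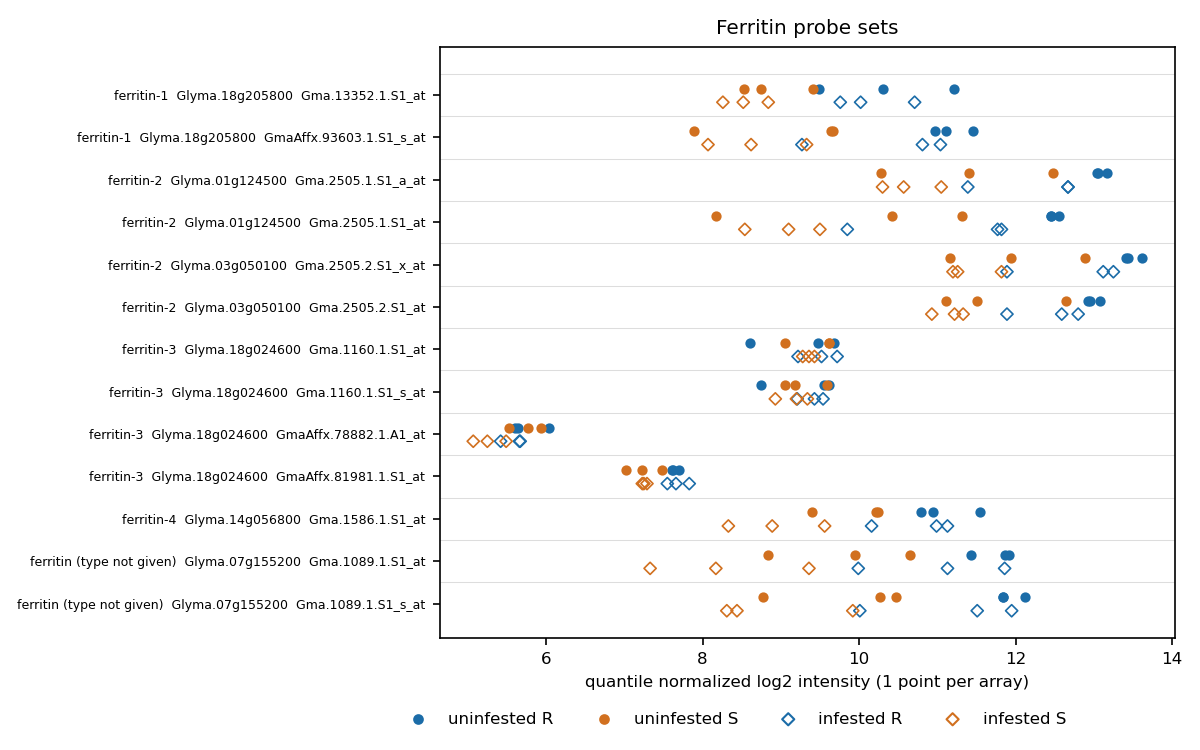
Quantile normalized log2 intensity (x axis) of the 13 ferritin probe sets, named by type, gene and probe set, with 1 point per array. Filled circles are uninfested and open diamonds infested plants, R in blue and S in orange. Uninfested R arrays lie above uninfested S arrays in the 9 probe sets outside ferritin-3. The S arrays are spread over a wider range in all of these but Gma.13352.1.S1_at of ferritin-1. The 4 ferritin-3 probe sets have differences between -0.17 and 0.40.

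Gene families tied to aphid defense were read as lists, with 1 probe set per gene. The 19 lists held 345 genes, and limma gave none of them an adjusted p under 0.05 in uninfested plants, against 0.0745% of all probe sets. With all 628 probe sets of these genes 2 passed, the MET2 and MYB139 probe sets described above. Ferritins had the highest median, 1.60 over 6 genes, of which 5 were higher in R plants at an unadjusted p under 0.05, as were 1.38% of all probe sets. The lowest median belonged to the 9 pathogenesis-related and osmotin-like genes, at -0.91, with all 9 values below 0.

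Several of the pathogenesis-related genes varied widely within S plants, whereas PGIP and PGIP4, polygalacturonase inhibitors, had SDs of 0.13 and 0.15 there. PR1-7 (GmaAffx.88845.1.S1_at), of the PR-1 family used as a marker of salicylic acid signaling, stood at 11.21, 7.24 and 9.56 in S plants and at 8.10, 6.62 and 7.25 in R plants, so the groups overlap (difference -2.01 ± 0.96, limma adjusted p = 1.0). The chitinase gene CHIA1 (Gma.2833.1.S1_s_at) stood at 10.29, 6.48 and 8.89 in S plants and at 6.66, 6.40 and 6.94 in R plants, also with overlap. The osmotin-like gene OLPb (GmaAffx.92230.1.A1_s_at) stood at 9.85, 7.77 and 7.78 in S plants and at 7.51, 7.41 and 7.27 in R plants. Its groups did not overlap, as was so for 7.5% of all probe sets in either direction. The glutathione S-transferase gene GSTU42 (Gma.2593.1.S1_s_at) followed the same array order (difference -2.24 ± 0.78, limma adjusted p = 1.0). It stood at 10.32, 7.02 and 8.27 in S plants and at 6.08, 6.27 and 6.54 in R plants, also without overlap. S replicate 1 was the highest array in each of these 4. In infested plants the PR list had a median of -2.12, and 3 of the 9 were lower in R plants at an adjusted p under 0.05, against 2.29% of all probe sets. With the block 8 of the 9 were, against 4.46%.

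No isoflavonoid or phenylpropanoid enzyme of the lists passed in uninfested plants, and 14 of the 20 and 7 of the 7 values were below 0. The lists hold only genes matched by symbol. They leave out the isoflavanone 4'-O-methyltransferase Glyma.13g173600, at -3.19 (limma adjusted p = 0.029 with the block, 0.18 without it). In infested plants it was at -3.73 (limma adjusted p = 0.0074). The 20 isoflavonoid genes had a median of -0.45 and the 7 entry enzymes of the pathway, such as PAL2.1 at -0.70, had a median of -0.41, and 1 in each list was lower in R plants at an unadjusted p under 0.05, as were 1.52% of all probe sets. For isoflavones that gene was IFR (Gma.2686.1.S1_s_at), an isoflavone reductase, at -1.44. The flavonol and anthocyanin branch held 3 of 8 genes lower in R plants at an unadjusted p under 0.05 and had a median of -0.17. F3H (GmaAffx.70258.1.S1_s_at), flavanone 3-hydroxylase, stood at 7.37, 8.15 and 7.46 in R plants and at 8.43, 8.36 and 8.49 in S plants, a difference of -0.77 ± 0.23 (limma adjusted p = 1.0). In infested plants F3H was 0.98 higher in R plants (limma adjusted p = 0.042), and its interaction of 1.75 had a limma adjusted p of 0.15 (0.042 with the block). FLS1 (GmaAffx.3256.1.S1_at), flavonol synthase, was at -0.63 in uninfested and 0.78 in infested plants.

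The transcription factor families had medians near 0. WRKY genes, many of which act in defense, had a median of -0.10 over 52 genes, and in infested plants a median of -0.88 with 15 genes lower in R plants at an adjusted p under 0.05, against 2.29% of all probe sets. The medians were 0.06 over 65 MYB, 0.18 over 15 NAC and 0.03 over 58 bZIP genes. The 14 resistance and immune signaling genes matched by symbol had a median of -0.08 and did not include the KR1-like gene, which carries no symbol. KR1 itself (Gma.10773.1.S1_at) is on that list, at 0.13 ± 0.20. Lipoxygenases and jasmonate synthesis had a median of 0.10 over 15 genes, photosynthesis -0.06 over 12, aquaporins 0.11 over 19 and glutathione S-transferases -0.02 over 24. The iron and metal genes outside ferritins, 7 in all, ranged from -0.21 to 0.05. Medians were -0.48 over 2 chalcone synthases, 0.02 over 5 purple acid phosphatases and -0.01 over 6 heat shock proteins, and the vegetative storage protein gene VSPA was at 0.56.

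**Figure D5:**
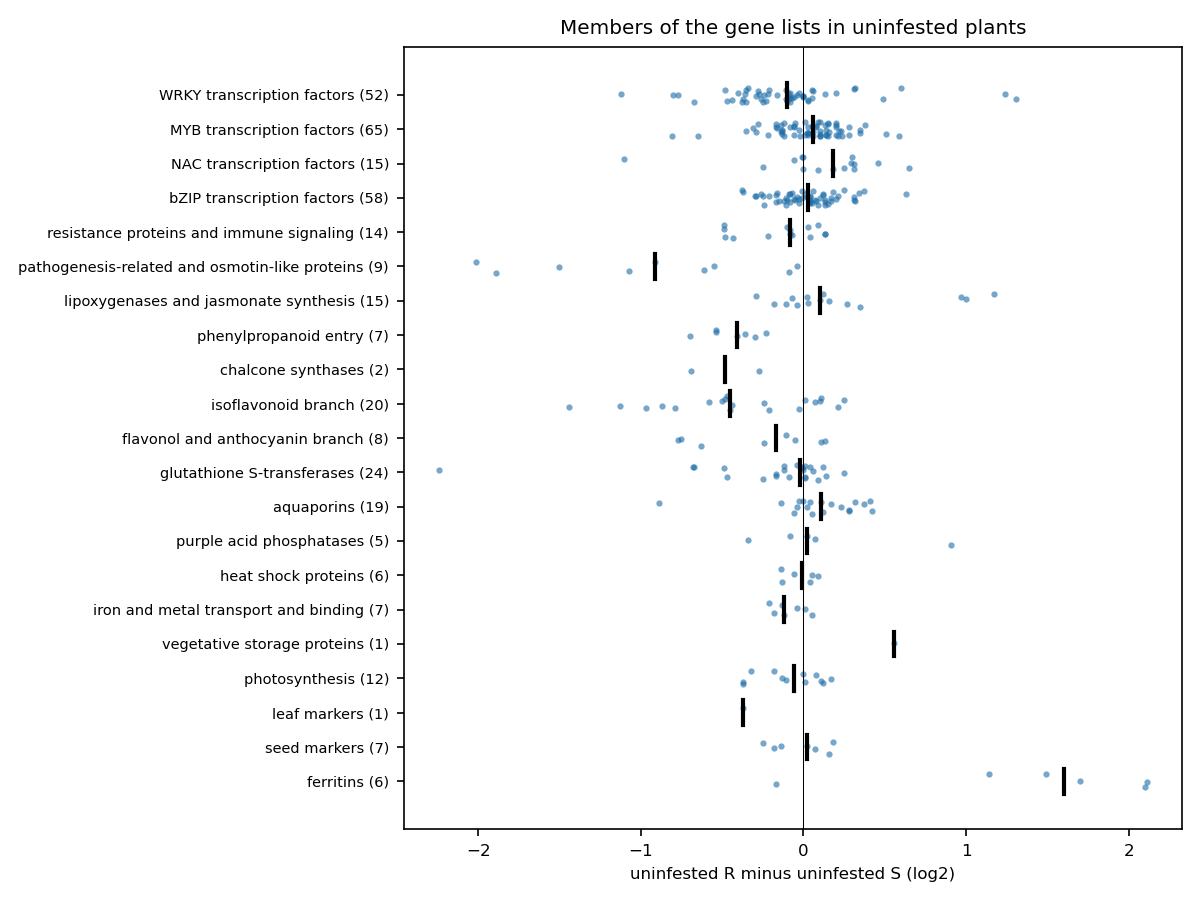
Difference between uninfested R and uninfested S plants (log2, x axis) for each gene of the lists, 1 point per gene, with the number of genes in brackets and the list's median as a black bar. Ferritins have a median of 1.60 and pathogenesis-related and osmotin-like genes one of -0.91, and no point had an adjusted p under 0.05.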

How the data were processed

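Affymetrix Soybean Genome Array data of 12 leaf RNA samples in 4 groups of 3 were used. The Methods of the study state GCRMA, and its processing notes list limma, RMA and GCRMA, without versions. Of the log2 values the authors deposited, 99.6% are the log2 of a whole number (tolerance 1e-06). The array medians ran from 6.86 to 7.71, so these values do not look normalized between arrays. They were therefore quantile normalized here over 37593 soybean probe sets, leaving out 60 controls. The design planned this as its main setting. limma 3.58.1 in R 4.3.3 fitted 1 mean per group to all 12 arrays with empirical Bayes moderation and no block, and Benjamini-Hochberg adjustment ran over all soybean probe sets. Named genes were every called probe set, the study's ferritins and list members past the threshold; those near the threshold, added by the block or named in lists were picked after their values were seen. Members and lists were chosen with earlier results of these data known. The lists for acyl-CoA thioesterases and nodule markers could not be filled from gene symbols. The array annotation gave 1 gene for 8677 probe sets, several for 370 and none for 28546, and RefSeq assembly Glycine_max_v4.0 placed 8652. Pairing by replicate number was judged from deviations from group means: same-numbered R and S arrays correlated at 0.484, 0.379 and 0.292 uninfested and 0.172, 0.305 and 0.416 infested, other pairs at most at 0.0261 and 0.0486. Arrays of the same number thus varied together, and the labels do not say what the number stands for. The study laid out its plants in randomized complete blocks, and whether the replicate numbers follow those blocks is not stated. The main fit was planned without a block, so its p-values leave this pairing out. The number of arrays limits the precision.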

Additional observations from a re-analysis of the deposited data

Results flagged for a closer look

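The auxin-repressed-like transcript read by Gma.15521.2.S1_at was picked out because its difference between R and S plants was not the same with and without aphids, by the interaction term (-1.98, limma adjusted p = 0.036). It was 1.15 lower in R than in S plants without aphids and 3.12 lower with them. In S plants it rose by 2.32 with aphids (limma adjusted p = 6.4e-05), and in R plants the value was 0.34. It lies on chromosome 7. The interaction lay between -2.05 and -1.85 under 19 alternatives, with an adjusted p under 0.05 in 9 of them and at most 0.31. The uninfested difference lay between -1.20 and -0.89 under 21 alternatives and passed in 11, with limma adjusted p-values of 0.0089 with the replicate block, 0.081 with only the 6 arrays compared and 0.85 on the values as deposited.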

How the results depend on the processing

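Counts follow in the order probe sets called between uninfested cultivars (28 as reported), those with an adjusted p under 0.05 (28), those called between infested cultivars (311), those called for the interaction (2), called ones that repeat in infested plants (26), called ones that pass for aphids in S plants (3), called ones on chromosomes 7 or 13 (15) and probe sets of genes with several that differ (4). Without moderation they were 10, 11, 80, 1, 9, 1, 5 and 0, where the spread is estimated for each probe set alone. With only probe sets at or above the median level, which leaves 14 of the 28 to test, they were 13, 14, 140, 0, 13, 0, 7 and 2. Without quantile normalization (deposited values) they were 14, 15, 184, 0, 13, 0, 6 and 2. With only the 6 arrays compared in the fit, the 6 counts it can give were 12, 12, 176, 12, 6 and 1, leaving out the interaction and the aphid response. With the replicate block the first 6 were 50, 53, 680, 60, 42 and 10. The block with only the arrays compared, added after the data were seen, gave 2 probe sets of genes with several, and 11 of the 28 lost an adjusted p under 0.05. Median centering and normexp background correction each gave 1 for the aphid response. Using all probe sets of each gene in the lists gave 2 that differ, against 0.

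Leaving out 1 array at a time gave 10 to 29 called and 13 to 32 with an adjusted p under 0.05 between uninfested cultivars, 139 to 447 between infested cultivars, 0 to 98 for the interaction, 10 to 28 that repeat, 0 to 3 for the aphid response, 6 to 17 on chromosomes 7 or 13, 1 to 4 for genes with several probe sets and 0 to 0 list members. Without infested R replicate 2 the infested count was 447 and the interaction count 98, and without infested R replicate 1 the infested count was 139. Each of the 28 kept its sign under the 21 or 22 alternatives that tested it, and 7 kept an adjusted p under 0.05 in all of them: Gma.2249.1.S1_at, Gma.1840.2.S1_at, GmaAffx.39359.1.S1_at, GmaAffx.784.1.A1_at, GmaAffx.52838.1.S1_at, GmaAffx.71943.1.S1_at and Gma.9000.1.S1_at. With the block all 28 kept an adjusted p under 0.05, at most 0.025. In infested plants Gma.6554.2.S1_at then passed, so that 27 of the 28 did. The other calls the block changed among the comparisons the report describes stand beside their results. The cause of these changes was not tested. The R arrays of 10 of the 28 averaged below the lower quartile of values, where a lower level could not be measured as such.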
